A study of Mus musculus with 24 samples.

Results

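A set of 8 genes that encode transporters of neurotransmitters was followed in the retina after blast-induced traumatic brain injury (bTBI): the vesicular glutamate transporters Slc17a6, Slc17a7 and Slc17a8, the vesicular transporters of GABA and glycine (Slc32a1), acetylcholine (Slc18a3) and monoamines (Slc18a2), and the plasma membrane transporters of glycine (Slc6a9) and glutamate (Slc1a7). They were chosen by symbol, with earlier results of these data known, and matched through the Ensembl gene IDs. All 8 were found among the 14922 genes measured at 1 week and the 15920 genes measured at 5 weeks. RNA-Seq was performed on 24 retinas of male C57BL/6J mice in 4 groups of 6: bTBI at 1 week with its sham group, and bTBI at 5 weeks with its sham group. Anesthetized bTBI mice received a blast wave of 20 PSI in an enclosed chamber at 13 to 17 weeks of age, sham mice were handled alike without the blast wave, and the eye turned to the blast was used. The sample labels give the earlier timepoint as 8 days. The 1 week retinas were extracted with another kit (RNeasy Plus Mini) than the 5 week retinas (RNeasy Mini), so effects of kit and of timepoint cannot be told apart, and every comparison with sham was made within a timepoint. All mice were of 1 inbred strain and 1 sex, and no group lacks a gene or carries a transgene.

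Vesicular transporters load a transmitter into synaptic vesicles with the proton gradient that the vacuolar ATPase makes, and plasma membrane transporters take the transmitter back up after release. The retina divides these tasks between its cell types. Slc17a6 (VGLUT2) serves the retinal ganglion cells (RGCs), whose axons form the optic nerve, whereas Slc17a7 (VGLUT1) fills the vesicles of photoreceptors and bipolar cells and Slc17a8 (VGLUT3) those of a small class of amacrine cells. Slc32a1 (VGAT) serves amacrine and horizontal cells, Slc18a3 (VAChT) the cholinergic starburst amacrine cells and Slc18a2 (VMAT2) the dopaminergic amacrine cells. Slc6a9 (GlyT1) marks glycinergic amacrine cells, and Slc1a7 (EAAT5) is a glutamate transporter of photoreceptor and bipolar cell terminals. The question put to the data was whether the transporter of the RGCs differed between bTBI and sham retinas when the transporters of the other cells were measured in the same retinas.

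Slc17a6 was the only one of the 8 transporters that passed the threshold of the test at either timepoint. It fell to 69.7% of its sham mean at 1 week and to 61.5% at 5 weeks, and it was lower relative to each of the 7 other transporters of the same retina at both timepoints. None of the other 7 passed the threshold, a limma p under 0.005 after Benjamini-Hochberg adjustment across every gene measured at the timepoint. Of all genes 2.25% passed it at 1 week and 0.835% at 5 weeks. A transporter that did not pass is not thereby shown to be unchanged. At an unadjusted p under 0.05 there were 2 of the 8 transporters at 1 week, Slc17a6 and Slc17a8, where 17.3% of all genes had such a p, and 1 at 5 weeks, Slc17a6, where 10.9% had.

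The promoters of Slc17a6, which fell, and of Slc17a7, which did not pass the test, are shown because the pair has the same transport function in different cells and lies on the same chromosome. Each line holds the 250 bases before a RefSeq start in GRCm38.p6, on the plus strand of chromosome 7, at chr7:51621580-51621829 for Slc17a6 and at chr7:45163671-45163920 for Slc17a7. Capitals mark the GC box GGGCGG, the core of an Sp1 type motif, or its reverse complement CCGCCC.
Slc17a6: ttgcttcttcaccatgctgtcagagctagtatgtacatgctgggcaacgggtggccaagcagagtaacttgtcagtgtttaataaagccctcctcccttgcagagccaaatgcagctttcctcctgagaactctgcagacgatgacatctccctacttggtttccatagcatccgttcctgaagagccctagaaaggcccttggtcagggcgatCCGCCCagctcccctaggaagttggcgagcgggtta
Slc17a7: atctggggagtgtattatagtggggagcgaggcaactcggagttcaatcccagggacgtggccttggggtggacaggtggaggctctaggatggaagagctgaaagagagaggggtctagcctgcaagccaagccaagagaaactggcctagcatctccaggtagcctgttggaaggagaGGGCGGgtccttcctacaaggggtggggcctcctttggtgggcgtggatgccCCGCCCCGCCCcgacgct
A second start listed for Slc17a6 (its promoter at chr7:51624387-51624636) lies inside the gene, has no match and is not shown. The first sequence holds 1 match, and the second holds 3, of which a pair overlaps by 1 base. The motif was found on either strand in 32.7% of the 32851 RefSeq promoters of this length, so the matches describe the sequences and set neither gene apart. Among the 12 promoters listed for the 8 transporters, at least 1 GC box stood before 6 of the genes and the E-box CACGTG before Slc1a7 alone. Neither TATAAA nor the CRE TGACGTCA stood before any. Of all the RefSeq promoters 6.02% held the E-box, 12.4% TATAAA and 1.55% the CRE. These shares are per promoter, whereas some of the genes have more than 1, so the counts are a description only.

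Slc17a6 is located at chr7:51622006-51671119 on the plus strand and Slc17a7 at chr7:45163949-45176142 on the plus strand (GRCm38, GENCODE vM21). Slc17a8 lies at chr10:89574020-89621253 on the minus strand. Slc32a1 is found at chr2:158610767-158615748 on the plus strand, Slc18a3 at chr14:32462438-32464850 on the minus strand and Slc18a2 at chr19:59260896-59296012 on the plus strand. Chromosome 4 carries both plasma membrane transporters on the plus strand, Slc1a7 at chr4:107968332-108013532 and Slc6a9 at chr4:117834506-117875198. Little sequence was shared with other genes: no stretch of 75 bases, the read length, of the transcripts of 7 members occurs in a transcript of another gene. In Slc17a8 it was 10 of 4646 stretches (0.215%). The longest run that Slc17a6 shares with Slc17a7 has 21 bases and with Slc17a8 25 bases. Slc18a3 lies inside Chat on the same strand, but 0 of its 2339 stretches occur in an annotated transcript of Chat. Slc17a6 and Slc17a7 also hold a short gene each on their own strand, Gm45072 (chr7:51631725-51632653) in Slc17a6 and Mir7055 in Slc17a7. Genes on the opposite strand overlap Slc32a1, Slc18a2 and Slc6a9, and the sources used here do not state whether the counting used the strand.

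The expression values are counts scaled to library size by the authors (CPM). Read as the value of 1 read, the common step of the values in a retina gives 14301989 to 25158638 reads per retina in the tabled genes. The labels name the cell type as retinal ganglion cell, but the values are those of whole retina, as the methods describe: 7 rod markers summed to 74412 to 87543 CPM in bTBI and 68388 to 89173 CPM in sham retinas at 1 week, while 12 RGC markers summed to 845 to 1377 CPM in bTBI and 1547 to 1849 CPM in sham retinas. A lower level of a transcript in such tissue can come from fewer cells of a type or from less RNA per cell, and the 2 cannot be told apart here. Transcripts of neighboring tissue were high in single retinas at 1 week. The sum of 8 lens markers was 3765 CPM in bTBI replicate 5 and 7376 CPM in bTBI replicate 6, with sham retinas at 8.55 to 705 CPM, and the sum of 2 oligodendrocyte markers was 3342 CPM in bTBI replicate 3, with sham retinas at 39.3 to 43.3 CPM. Of 7 microglia markers, 5 were called higher in bTBI retinas at 1 week, as were 1.27% of all genes.

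Per kilobase of exon the 8 transcripts covered a wide range of levels. In sham retinas at 1 week Slc17a7 was the highest with a mean of 453 CPM per kb. Slc32a1 (33.1 CPM per kb), Slc6a9 (32.6) and Slc1a7 (31.5) followed, with ranges over the 6 retinas that overlapped between neighbors in this order. Slc17a6 came next with 18.7 CPM per kb and overlapped neither neighbor. Slc18a3 (4.86 CPM per kb) and Slc17a8 (3.95) overlapped each other, and Slc18a2 was the lowest with 0.909 CPM per kb. In all 4 groups Slc17a6 stood below Slc17a7, Slc32a1, Slc6a9 and Slc1a7 and above Slc18a3, Slc17a8 and Slc18a2.

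At 5 weeks the order of the levels was Slc17a7, Slc1a7, Slc6a9, Slc32a1, Slc17a6, Slc17a8, Slc18a3 and Slc18a2 in both groups, and no neighboring ranges overlapped. Slc17a6 had 7.46 CPM per kb in bTBI and 12.1 CPM per kb in sham retinas at that timepoint. Slc1a7 had 47.9 CPM per kb in bTBI and 47.7 CPM per kb in sham retinas. The 2 timepoints were scaled separately and differ in the RNA kit, so their levels are given side by side and were not compared.

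**Figure D1:**
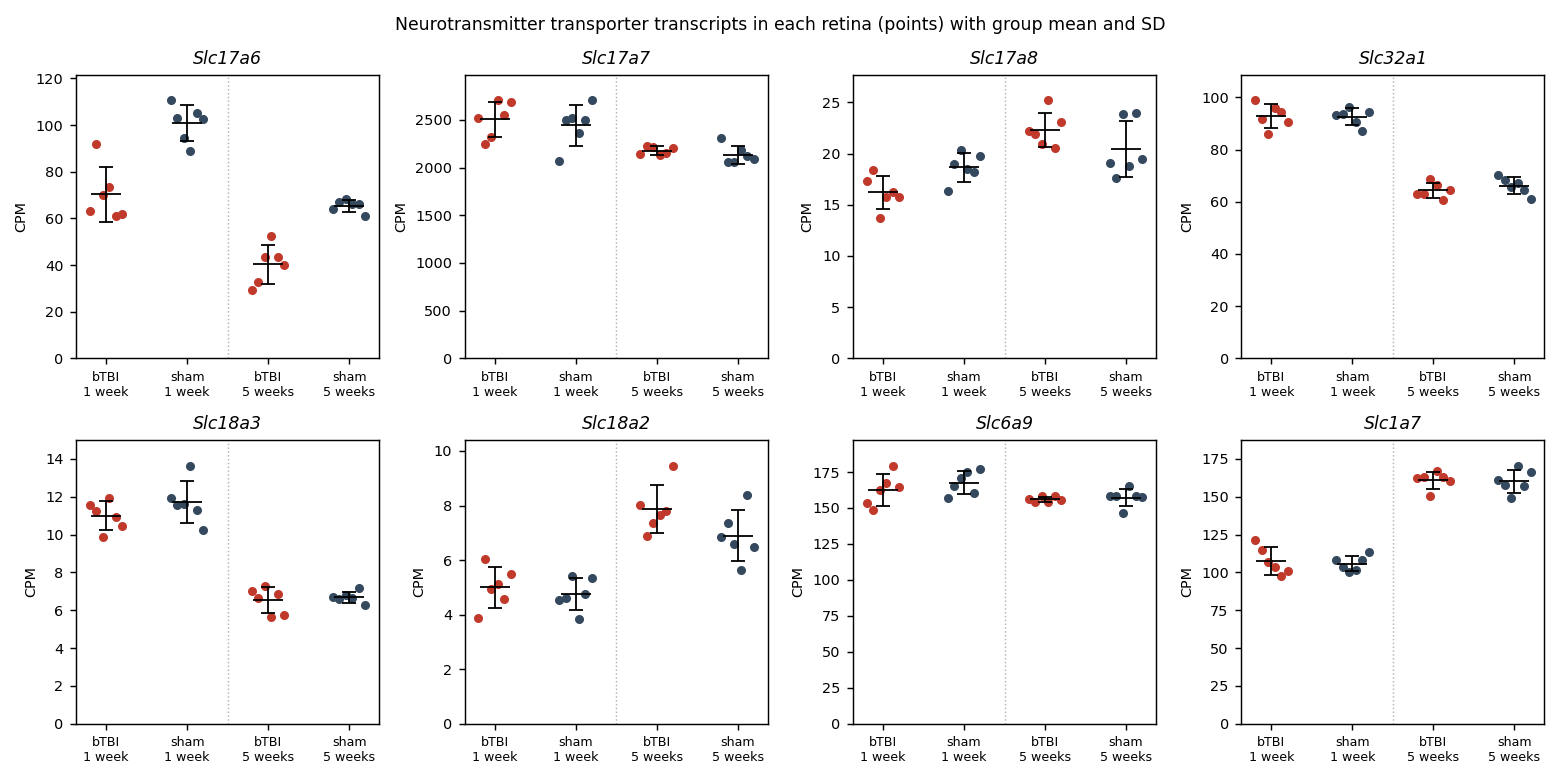
Expression of the 8 transporter genes in CPM (vertical axes, from 0) in each retina (points) of the 4 groups (bTBI left of sham at each timepoint), with the group mean (horizontal bar) and SD (whiskers). The Slc17a6 panel shows bTBI retinas at 60.8 to 91.9 CPM against 89.0 to 111 CPM in sham retinas at 1 week, and at 29.5 to 52.5 CPM against 60.9 to 68.1 CPM at 5 weeks, while the groups overlap in the other 7 panels.

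Slc17a6 had 63.2, 91.9, 70.2, 73.5, 60.8 and 62.0 CPM in the bTBI retinas at 1 week, against 111, 103, 94.4, 89.0, 105 and 102 CPM in the sham retinas. Of the 6 bTBI retinas 5 were below every sham retina, and bTBI replicate 2 lay inside the sham range, so the groups overlapped. The log2 fold change of bTBI over sham was -0.53 (SE 0.088, 95% CI -0.71 to -0.34), with a limma adjusted p of 0.00164. At this threshold 0.985% of all genes were called lower in bTBI retinas at 1 week, and 1 of the 8 transporters was.

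The 1 week call of Slc17a6 was close to the threshold. It was lost without bTBI replicate 5 (adjusted p = 0.00502), bTBI replicate 6 (0.00527), sham replicate 2 (0.00561) or sham replicate 5 (0.00614), and with a prior without a trend (0.00532), at log2 fold changes of -0.53 to -0.49. Without bTBI replicates 5 and 6 together, the retinas with the highest lens transcripts, the log2 fold change was -0.44 and the adjusted p 0.0156.

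At 5 weeks Slc17a6 had 29.5, 32.6, 43.6, 52.5, 43.3 and 40.2 CPM in the bTBI retinas, against 64.1, 67.2, 68.1, 66.0, 66.3 and 60.9 CPM in the sham retinas. Every bTBI retina was below every sham retina. Its log2 fold change was -0.71 (SE 0.091, 95% CI -0.90 to -0.52) with an adjusted p of 6.72e-05. At 5 weeks 0.823% of all genes were called lower in bTBI retinas and 1.75% had bTBI values that all lay below those of sham, and of the 8 transporters 1 was in each count. The call was lost with a robust prior (adjusted p = 0.00951) and with a prior without a trend (0.00580), and with no single retina left out.

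The bTBI retinas also spread more widely in Slc17a6 than in the other transporters. The coefficient of variation of Slc17a6 was 16.6% in bTBI and 7.72% in sham retinas at 1 week, and 20.6% in bTBI and 3.95% in sham retinas at 5 weeks. For the other 7 transporters the coefficient in bTBI retinas at 1 week was 4.88% (Slc32a1) to 14.9% (Slc18a2), and at 5 weeks it was 1.12% (Slc6a9) to 11.2% (Slc18a2) in bTBI and 3.86% (Slc6a9) to 13.6% (Slc18a2) in sham retinas. These values are a description, and the spread was not tested.

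The effect on Slc17a6 was not shown to differ between the timepoints. The difference of the log2 fold changes, 5 weeks minus 1 week, was -0.19 (SE 0.14, 95% CI -0.48 to 0.10, limma adjusted p = 0.820 in a fit of all 24 retinas). At an adjusted p under 0.05, 0.768% of the 14455 genes in both tables differed, and 0 of the 8 transporters did. At an unadjusted p under 0.05, 8.5% of the genes differed, and of the transporters Slc17a8 alone.

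Slc17a7, the vesicular glutamate transporter of photoreceptors and bipolar cells, had 2246 to 2705 CPM (median 2536) in bTBI retinas at 1 week, against 2066 to 2704 CPM (median 2501) in sham retinas. At 5 weeks it had 2132 to 2231 CPM (median 2176) in bTBI retinas, against 2059 to 2306 CPM (median 2106) in sham retinas. The groups overlapped at both timepoints. Its log2 fold change was 0.04 at 1 week (95% CI -0.11 to 0.19, limma adjusted p = 0.865) and 0.03 at 5 weeks (95% CI -0.04 to 0.10, adjusted p = 0.840), so a fall of the size seen in Slc17a6 lies outside both intervals.

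Slc17a8, the vesicular glutamate transporter of a class of amacrine cells, is the member that came nearest to Slc17a6 at 1 week. It had 13.7 to 18.4 CPM (mean 16.2) in bTBI retinas, against 16.3 to 20.3 CPM (mean 18.7) in sham retinas, and 4 of the 6 bTBI retinas were below every sham retina. The log2 fold change was -0.20 (SE 0.074, 95% CI -0.35 to -0.04), with a limma p of 0.0182 before and 0.160 after adjustment. At 5 weeks the median was 22.0 CPM (lowest 20.5, highest 25.2) in bTBI retinas and 19.3 CPM (lowest 17.6, mean 20.5 ± 2.75 SD) in sham retinas, and 1 bTBI retina lay above every sham retina, with a log2 fold change of 0.12 (95% CI -0.03 to 0.28, adjusted p = 0.599). The sign therefore changed between the timepoints, and the difference of the effects was 0.32 (SE 0.11, unadjusted p = 0.00630), which did not pass the adjustment over all genes (adjusted p = 0.238).

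**Figure D2:**
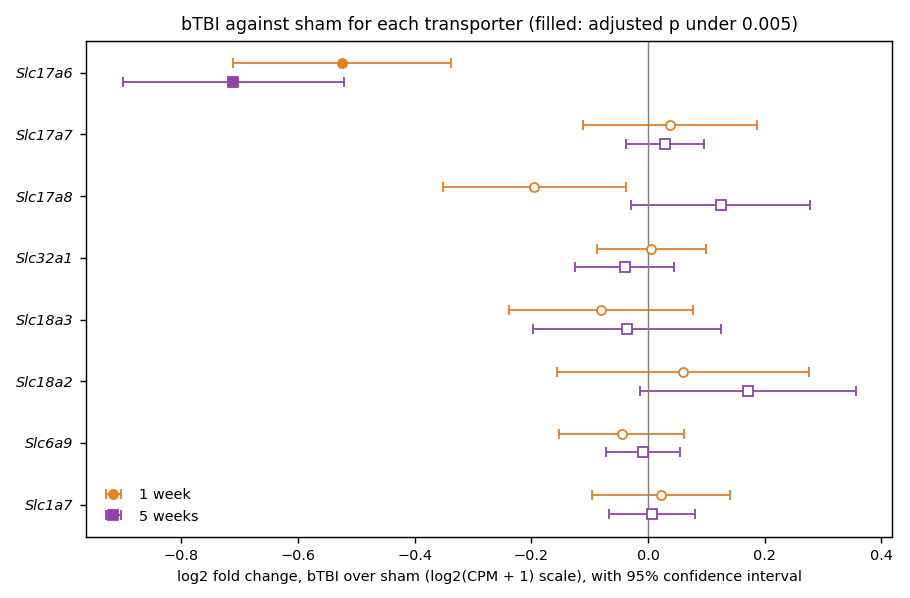
Log2 fold change of bTBI over sham on the log2(CPM + 1) scale (horizontal axis) with its 95% confidence interval for each transporter, at 1 week (circles) and 5 weeks (squares), filled where the adjusted p is under 0.005. The intervals of Slc17a6 end at -0.34 at 1 week and -0.52 at 5 weeks, and all others but that of Slc17a8 at 1 week include 0.

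Slc32a1, which loads GABA and glycine in amacrine and horizontal cells, had 85.9 to 98.9 CPM (median 93.1) in bTBI retinas at 1 week, against 86.9 to 96.4 CPM (median 93.5) in sham retinas. It had 60.7 to 68.8 CPM (median 63.7) in bTBI retinas at 5 weeks, against 61.2 to 70.4 CPM (median 66.4) in sham retinas. Both pairs of groups overlapped. On the log2 scale the fold change was 0.01 at 1 week (95% CI -0.09 to 0.10, limma adjusted p = 0.975) and -0.04 at 5 weeks (95% CI -0.12 to 0.04, adjusted p = 0.820).

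Slc6a9 takes up glycine. Its values were 149 to 179 CPM (median 163) in bTBI retinas and 157 to 177 CPM (median 168) in sham retinas at 1 week. At 5 weeks they were 154 to 158 CPM (median 156) in bTBI retinas and 146 to 165 CPM (median 158) in sham retinas. The sham range enclosed that of bTBI at 5 weeks, and at 1 week the groups overlapped. Its log2 fold change was -0.05 at 1 week (95% CI -0.15 to 0.06, adjusted p = 0.737) and -0.01 at 5 weeks (95% CI -0.07 to 0.06, adjusted p = 0.964).

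The cholinergic and monoaminergic transporters were low in level. Slc18a3 had 9.86 to 11.9 CPM (median 11.1) in bTBI retinas and 10.3 to 13.6 CPM (median 11.6) in sham retinas at 1 week, with a log2 fold change of -0.08 (95% CI -0.24 to 0.08, adjusted p = 0.673). It had 5.62 to 7.26 CPM (median 6.74) in bTBI retinas and 6.27 to 7.16 CPM (median 6.67) in sham retinas at 5 weeks, with a log2 fold change of -0.04 (95% CI -0.20 to 0.12, adjusted p = 0.938). The groups overlapped at both timepoints. For Chat, which makes acetylcholine in the starburst cells, the log2 difference between bTBI and sham was -0.13 at 1 week, with an adjusted p of 0.390, and -0.02 at 5 weeks, with an adjusted p of 0.962.

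Slc18a2, the transporter of dopaminergic amacrine cells, was the least expressed, with 59 to 136 reads per retina in bTBI and 65 to 131 reads in sham at 1 week. Its values were 3.86 to 6.03 CPM (median 5.02) in bTBI retinas and 3.84 to 5.43 CPM (median 4.67) in sham retinas at 1 week, and 6.87 to 9.46 CPM (median 7.73) in bTBI retinas and 5.63 to 8.40 CPM (median 6.71) in sham retinas at 5 weeks. The groups overlapped at both timepoints. The log2 fold change was 0.06 at 1 week (95% CI -0.16 to 0.28, adjusted p = 0.848) and 0.17 at 5 weeks (95% CI -0.01 to 0.36, adjusted p = 0.509). On the log2(CPM + 1) scale the change of a gene at this level is understated. For Th, the enzyme that begins dopamine synthesis, the log2 difference between bTBI and sham was -0.14 at 1 week, with an adjusted p of 0.636, and 0.03 at 5 weeks, with an adjusted p of 0.961.

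Slc1a7, the glutamate transporter of photoreceptor and bipolar cell terminals, had 97.9 to 122 CPM (median 105) in bTBI retinas at 1 week, against 99.9 to 114 CPM (median 106) in sham retinas. At 5 weeks it had 150 to 167 CPM (median 163) in bTBI retinas, against 149 to 171 CPM (median 159) in sham retinas. The ranges overlapped at each timepoint. Slc1a7 had a fold change of 0.02 on the log2 scale at 1 week (95% CI -0.10 to 0.14, adjusted p = 0.900) and 0.01 at 5 weeks (95% CI -0.07 to 0.08, adjusted p = 0.977).

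Over all 8 transporters the median log2 fold change was -0.02 at 1 week and 0.00 at 5 weeks, against 0.00 over all genes at each timepoint. At each timepoint 4 of the 8 fold changes were below 0.

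To set the transporter of the RGCs against those of the other cells, the log2 ratio of Slc17a6 to each other transporter was formed within every retina, which removes a scaling of the retina as a whole except where the pseudocount of 1 weighs on low genes such as Slc18a2. The ratio was lower in bTBI than in sham retinas for all 7 transporters at both timepoints. All 14 comparisons had a Benjamini-Hochberg adjusted p under 0.05 in a two-sided exact permutation test, adjusted over the 14. The 14 share the Slc17a6 values and are not independent of one another. The members were chosen with earlier results of these data known, and Slc17a6 alone among them was called. The 14 comparisons are therefore not independent evidence of its fall.

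At 1 week the largest difference was that to Slc18a2, with a mean log2 ratio of 3.56 ± 0.17 in bTBI and 4.15 ± 0.16 in sham retinas (SD, n = 6 each), a difference of -0.58 (exact permutation, adjusted p = 0.00337). The ratio to Slc1a7 was -0.62 ± 0.21 in bTBI and -0.07 ± 0.08 in sham retinas, a difference of -0.55 (adjusted p = 0.00337). In these 2 comparisons every bTBI retina was below every sham retina. The ratio to Slc17a7 was -5.15 ± 0.30 in bTBI and -4.58 ± 0.20 in sham retinas, a difference of -0.56 (adjusted p = 0.0101), and 5 of the 6 bTBI retinas were below every sham retina. Differences to Slc32a1 (-0.53, adjusted p = 0.00909), Slc6a9 (-0.48, adjusted p = 0.0101) and Slc18a3 (-0.44, adjusted p = 0.0117) followed. The smallest was that to Slc17a8, at 2.04 ± 0.21 in bTBI and 2.37 ± 0.19 in sham retinas, a difference of -0.33 (exact permutation, adjusted p = 0.0216), which became -0.25 (adjusted p = 0.0952) without bTBI replicates 5 and 6 together.

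At 5 weeks all 6 bTBI retinas lay below all 6 sham retinas in each of the 7 ratios. The differences ran from -0.67 against Slc32a1 and Slc18a3 to -0.88 against Slc18a2, with Slc6a9 at -0.70, Slc1a7 at -0.72, Slc17a7 at -0.74 and Slc17a8 at -0.84. Each had an unadjusted p of 0.00216, the smallest that an exact permutation of 6 against 6 retinas can give, and an adjusted p of 0.00337. The ratio to Slc17a7 was -5.75 ± 0.30 in bTBI and -5.01 ± 0.10 in sham retinas (SD, n = 6 each).

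**Figure D3:**
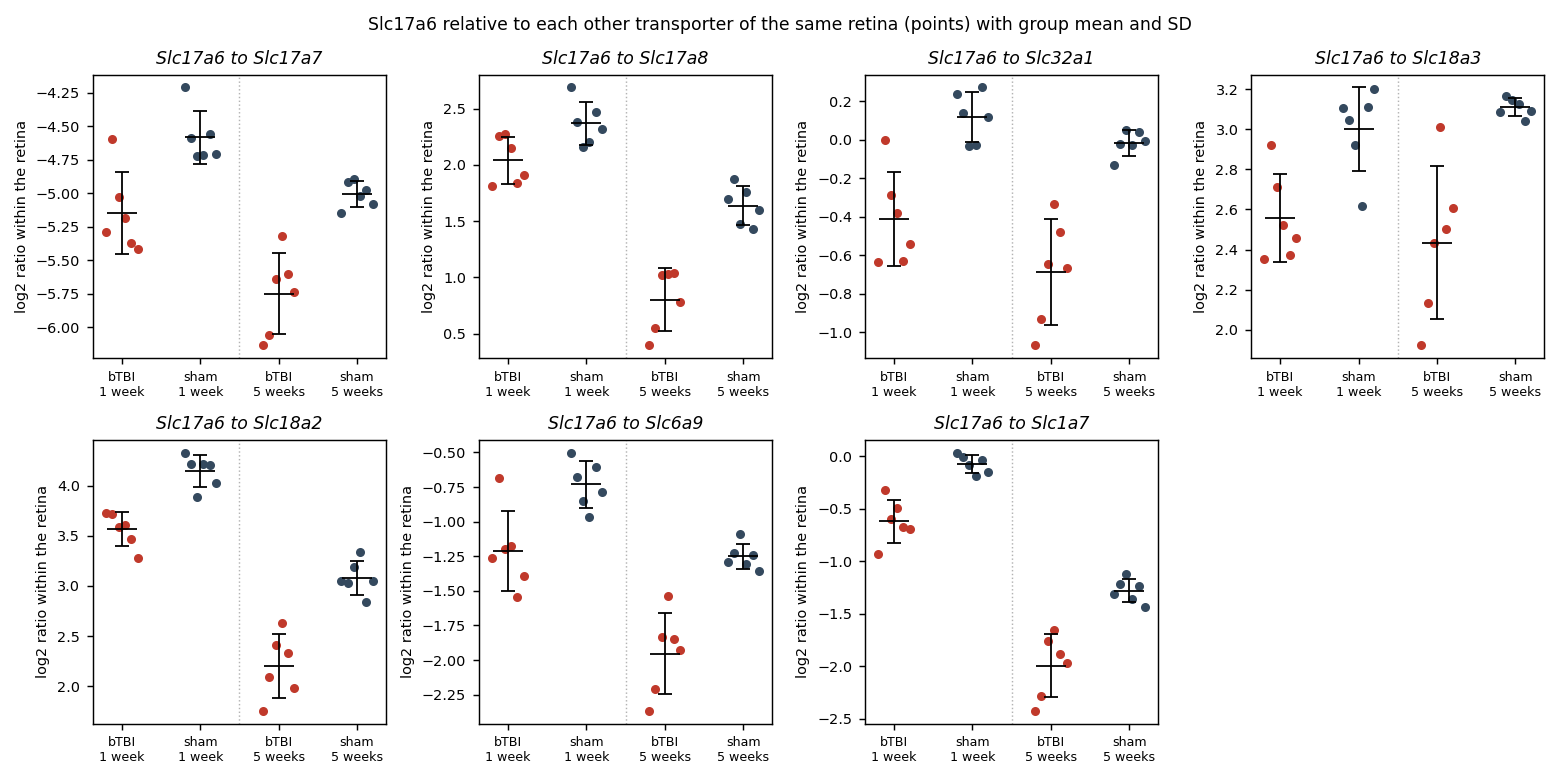
Log2 ratio of Slc17a6 to each of the 7 other transporters within the same retina (vertical axes, difference of log2(CPM + 1)), by retina (points), with group mean and SD, for the 4 groups. At 5 weeks every bTBI point lies below every sham point in all 7 panels, and at 1 week this holds for Slc18a2 and Slc1a7.

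The level of Slc17a6 in single retinas went with that of RGC markers, in part also among sham retinas. The ranks of other genes were not compared with the marker sum. At 1 week bTBI replicate 2 had the highest Slc17a6 of its group (91.9 CPM) and the highest sum of the 12 RGC markers (1377 CPM), and replicate 5 had the lowest of both (60.8 and 845 CPM). At 5 weeks bTBI replicate 4 had the highest (52.5 and 725 CPM) and replicate 1 the lowest of both (29.5 and 486 CPM). Slc17a6 and the RGC marker sum had the same rank in 6 of 6 bTBI and 4 of 6 sham retinas at 5 weeks, and in 4 of 6 bTBI and 4 of 6 sham retinas at 1 week. The values of a retina share its library, and Slc17a6 is not in the marker list. Of the 12 markers 8 were called lower in bTBI retinas at 1 week and 10 at 5 weeks, where 0.985% and 0.823% of all genes were. But the list was drawn up with results of these retinas known, so it is not independent evidence of its direction.

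**Figure D4:**
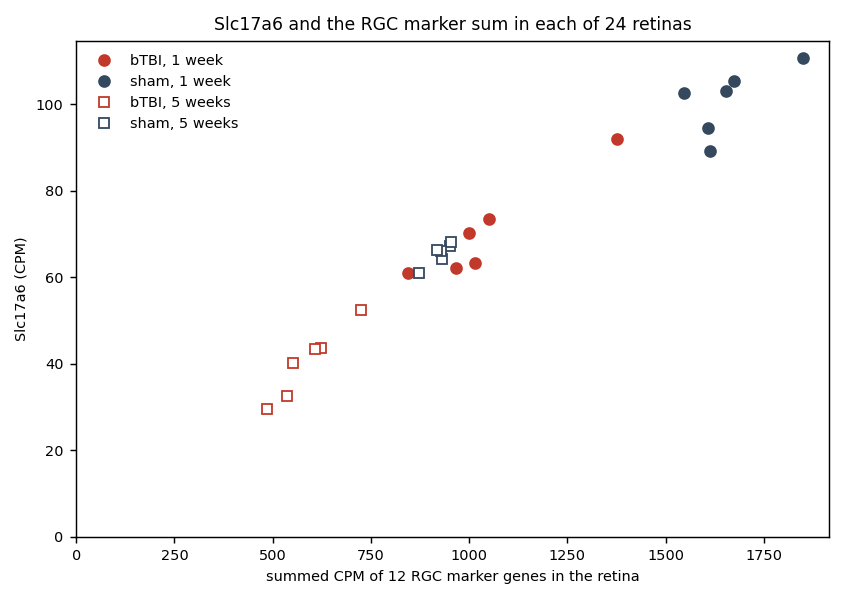
Slc17a6 in CPM (vertical axis) against the summed CPM of 12 RGC marker genes (horizontal axis) in each of the 24 retinas, with circles for 1 week and open squares for 5 weeks. The bTBI retina at 1 week with the highest Slc17a6, 91.9 CPM, has the highest marker sum of its group, 1377 CPM, and the order of the 6 bTBI retinas at 5 weeks is the same on both axes.

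The genes with the pattern most like that of Slc17a6 were sought among 14393 genes by the mean absolute difference over the 24 retinas of the deviation from the sham mean, on the log2(CPM + 1) scale. The nearest was Thy1, a surface glycoprotein of RGCs, with a mean difference of 0.0979, followed by Pou4f1, the transcription factor BRN3A (0.0988), Nrn1, the secreted neuritin (0.101), and at rank 5 Rbpms, an RNA-binding protein used to label RGCs (0.103). The median over all genes was 0.365. Since the measure takes in the bTBI retinas, the fold changes of these genes are a description: those of Thy1, Pou4f1, Nrn1 and Rbpms were -0.50, -0.49, -0.67 and -0.50 at 1 week and -0.51, -0.69, -0.65 and -0.63 at 5 weeks. Thy1, Pou4f1 and Rbpms stand in the RGC marker list, and Nrn1 does not.

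**Figure D5:**
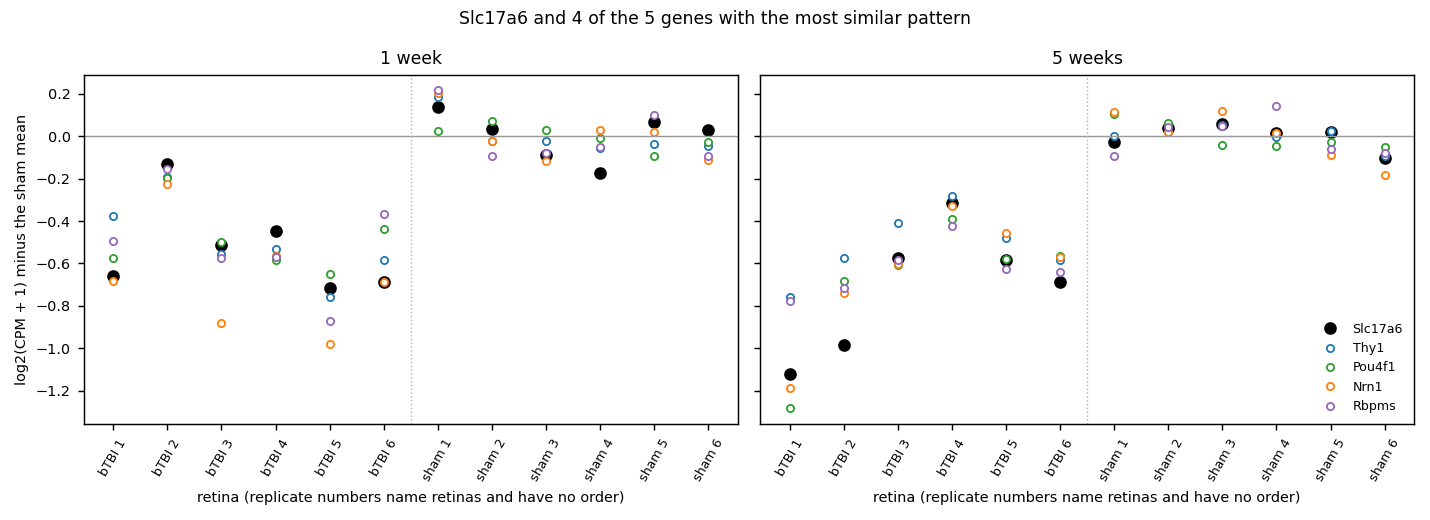
Deviation of log2(CPM + 1) from the sham mean of the timepoint (vertical axis) in each bTBI and sham retina (horizontal axis) for Slc17a6 (filled) and 4 of the 5 genes nearest to it (open), at 1 week (left) and 5 weeks (right). For Slc17a6 the smallest fall among bTBI retinas was -0.13 in replicate 2 at 1 week and -0.31 in replicate 4 at 5 weeks. The 4 other genes had their smallest falls in these retinas too. They were picked for closeness to Slc17a6 in these same retinas, so the match is a description.

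Other genes of transmitter transport were read in 6 lists beside the 8 transporters. Of 4 other glutamate transporters limma called 0 at either timepoint, against 2.25% of all genes at 1 week and 0.835% at 5 weeks. At an unadjusted p under 0.05 there were 1 at 1 week, where 17.3% of all genes had such a p, and 3 at 5 weeks, where 10.9% had. Slc1a3 (GLAST), the glutamate transporter of Müller glia, had a mean of 336 CPM in bTBI and 292 CPM in sham retinas at 1 week (log2 fold change 0.20, adjusted p = 0.0815) and 198 CPM in bTBI and 185 CPM in sham retinas at 5 weeks (0.10, adjusted p = 0.247). For Slc1a2 (GLT-1) the log2 difference was 0.15 at 1 week, with an adjusted p of 0.368, and 0.09 at 5 weeks, with an adjusted p of 0.134. The median of the list was 0.06 at 1 week and 0.10 at 5 weeks.

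Of 8 transporters of GABA, glycine, taurine and related molecules limma called 0 at either timepoint, against 2.25% of all genes at 1 week and 0.835% at 5 weeks. The medians of the list were 0.02 at 1 week and 0.01 at 5 weeks. At an unadjusted p under 0.05 there was 1 at each timepoint, against 17.3% of all genes at 1 week and 10.9% at 5 weeks. Slc6a5 (GlyT2), the second glycine transporter, had a log2 difference of 0.02 (adjusted p = 0.926) at 1 week and 0.03 (adjusted p = 0.915) at 5 weeks. Of the other vesicular transporters, 4 measured at 1 week and 5 at 5 weeks, limma called 0, against 2.25% and 0.835% of all genes. At an unadjusted p under 0.05 there were 1 and 2, against 17.3% and 10.9% of all genes. At 1 week 2 of the 4 log2 fold changes were below 0 (median -0.02). At 5 weeks all 5 were (-0.25 to -0.05, median -0.08). Slc6a17, a vesicular transporter of neutral amino acids, came nearest at 1 week, with 206 to 253 CPM (median 238) in bTBI retinas and 258 to 292 CPM (median 270) in sham retinas. These groups did not overlap, which 2.25% of all genes shared in this direction, but the log2 fold change of -0.21 had an adjusted p of 0.0258. At 5 weeks the log2 fold change of Slc6a17 was -0.15.

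Slc29a4, the plasma membrane monoamine transporter (PMAT), was 1 of 3 measured genes in the list of monoamine and choline transporters and fell at both timepoints. It had 17.9 to 22.0 CPM (median 21.0) in bTBI retinas and 26.2 to 30.6 CPM (median 29.3) in sham retinas at 1 week, and 16.8 to 20.7 CPM (median 19.6) in bTBI retinas and 23.9 to 26.3 CPM (median 25.7) in sham retinas at 5 weeks. Every bTBI retina was below every sham retina at both timepoints, which held for 2.25% of all genes at 1 week and 1.75% at 5 weeks. The log2 fold change of Slc29a4 was -0.47 (SE 0.064, limma adjusted p = 0.000412) at 1 week and -0.40 (SE 0.056, adjusted p = 0.000185) at 5 weeks. Of all genes 0.985% were called lower at 1 week and 0.823% at 5 weeks. The other 2 genes of the list were not called: Slc5a7, the choline transporter of cholinergic terminals, had a log2 difference of -0.25 at 1 week, where its adjusted p was 0.118, and of 0.14 at 5 weeks, where it was 0.464.

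The vacuolar ATPase, which drives all vesicular transporters, was represented by 16 genes. Atp6v1g2, a subunit enriched in neurons, fell at 1 week, with 102 to 126 CPM (median 111) in bTBI retinas against 140 to 153 CPM (median 144) in sham retinas and a log2 fold change of -0.35 (SE 0.050, adjusted p = 0.000634). Without bTBI replicates 5 and 6 together it was -0.32 with an adjusted p of 0.00825, above the threshold. The bTBI values lay below all sham values, which held for 2.25% of all genes at 1 week and 1.75% at 5 weeks. At 5 weeks those of Atp6v1g2 did so again, with 92.7 to 99.2 CPM (median 94.6) in bTBI retinas and 100 to 112 CPM (median 107) in sham retinas. But the log2 fold change of -0.16 had an adjusted p of 0.0138. Of the 16 genes 1 was called at 1 week and 0 at 5 weeks, where 2.25% and 0.835% of all genes were. At an unadjusted p under 0.05 there were 5 and 2, where 17.3% and 10.9% of all genes had such a p. The medians were -0.08 at 1 week and -0.02 at 5 weeks.

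In the enzymes of transmitter synthesis and breakdown limma called 0 of 15 measured genes at either timepoint. It called 2.25% of all genes at 1 week and 0.835% at 5 weeks. At an unadjusted p under 0.05 there were 4 enzymes at 1 week and 3 at 5 weeks, against 17.3% and 10.9% of all genes. The medians were -0.09 at 1 week and 0.02 at 5 weeks, and 13 of the 15 fold changes were below 0 at 1 week and 6 at 5 weeks. Glul, the glutamine synthetase of Müller glia, had 3032 to 3626 CPM (median 3338) in bTBI retinas and 3725 to 4054 CPM (median 3916) in sham retinas at 1 week, with a log2 fold change of -0.23 and an adjusted p of 0.0266. These groups did not overlap. At 5 weeks its log2 fold change was 0.04 (adjusted p = 0.784). Gad1, which makes GABA, had a log2 difference of -0.04 at 1 week, where its adjusted p was 0.772, and of 0.07 at 5 weeks, where it was 0.524. Of the glutamine and cystine transporters, 6 measured at 1 week and 5 at 5 weeks, limma called 0, against 2.25% and 0.835% of all genes. At an unadjusted p under 0.05 there was 1 at each timepoint, against 17.3% and 10.9% of all genes. Their medians were 0.08 at 1 week and -0.06 at 5 weeks.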

How the data were processed

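Total RNA of 24 retinas, each from a separate mouse, was sequenced after poly(A) selection and stranded library preparation (75-base paired-end reads). The authors aligned the reads to GRCm38 (STAR), counted them per gene (featureCounts) and scaled the counts of each retina. The deposited signal values are such CPM, in a table per timepoint with low genes already removed (14922 and 15920 genes, 14455 in both). Raw counts and read totals were not used here, and depth was inferred from the step of the values, of which all were whole multiples to within 0.01 of a step. IDs were matched to symbols for 14907 and 15902 genes.

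On the log2(CPM + 1) scale, which understates fold changes of low genes, bTBI and sham retinas were compared within a timepoint with limma 3.58.1 in R 4.3.3 (prior variance with a trend), Benjamini-Hochberg adjustment and a threshold of 0.005, the FDR that the study used. The difference between timepoints was fitted in all 24 retinas for genes measured at both (threshold 0.05). Ratios of Slc17a6 were compared by an exact permutation test written for this purpose, with the Benjamini-Hochberg adjustment of scipy 1.17.1. The methods were checked on simulated data. There limma called 2% of genes with a true log2 change of 0.25 and 50% of those with 0.5 at 1 week. At 5 weeks it called 30% and 64%.

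The members and gene lists were chosen with earlier results of these data known. Named genes are the 8 members, called genes of the lists, examples of a list (its defining genes and, after their values were seen, those nearest to a call) and the 5 genes nearest to Slc17a6, of which 1 is not reported here. Alternatives were other scalings, a filter of 1 CPM in 6 or more of 12 retinas, a pseudocount of 0.1, other priors, a replicate block, a single fit of all retinas, other thresholds and leaving out retinas.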

Additional observations from a re-analysis of the deposited data

How the results depend on the processing

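Under every alternative run, Slc17a6 kept its negative sign at both timepoints and relative to all 7 other transporters. Leaving out 1 retina at a time gave log2 fold changes of -0.60 to -0.49 at 1 week and -0.79 to -0.63 at 5 weeks. At 1 week the adjusted p was above 0.005 with a prior without a trend (-0.53, adjusted p = 0.00532) and without bTBI replicates 5 and 6 together (-0.44, adjusted p = 0.0156). It was also above 0.005 without bTBI replicate 5 (0.00502) or 6 (0.00527) and without sham replicate 2 (0.00561) or 5 (0.00614). At 5 weeks it was above 0.005 with a robust prior (-0.71, adjusted p = 0.00951) and with a prior without a trend (-0.71, adjusted p = 0.00580). The ratio of Slc17a6 to Slc17a8 at 1 week, -0.27 to -0.38 when single retinas were left out, had an adjusted p of 0.0938 with the replicate block (-0.33) and 0.0952 without bTBI replicates 5 and 6 together (-0.25). The other 13 ratios kept an adjusted p under 0.05 under every alternative.

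The number of genes called at 1 week was 336, against 685 with all retinas in a single fit, 907 at a threshold of 0.05, 112 without bTBI replicates 5 and 6 together and 189 to 486 without single retinas. At 5 weeks it was 133, against 75 in the single fit, 326 at a threshold of 0.05, 56 with a prior without a trend and 88 to 163 without single retinas. The effect differed between timepoints in 111 genes, in 15 at a threshold of 0.005, in 44 without bTBI replicates 5 and 6 of 1 week together and in 47 to 253 without single retinas. The cause of these changes was not tested, except that thresholds change a count by construction.

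Signs turned only in members far from a call: without single retinas the log2 fold change ran from -0.013 to 0.027 (Slc32a1), -0.013 to 0.049 (Slc1a7) and -0.0099 to 0.068 (Slc17a7) at 1 week and from -0.014 to 0.026 (Slc1a7) and -0.029 to 0.0052 (Slc6a9) at 5 weeks. The difference between timepoints ran from -0.039 to 0.039 (Slc17a7, and 0.026 without bTBI replicates 5 and 6 of 1 week together) and from -0.042 to 0.020 (Slc1a7). Of the other named genes, Rbpms at 1 week (adjusted p = 0.00483) was above 0.005 without any 1 of 11 retinas, with both other scalings (0.00738 and 0.00519), with a prior without a trend (0.0109) and with the replicate block (0.0118). With a prior without a trend Pou4f1 (0.00888) and Nrn1 (0.0144) were above it at 5 weeks. Without bTBI replicates 5 and 6 together Rbpms (0.0158), Thy1 (0.00677), Nrn1 (0.00825) and Atp6v1g2 (0.00825) were above it at 1 week, and Slc29a4 was called throughout.

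Replicate numbers did not pair the retinas: deviations of same-numbered bTBI and sham retinas correlated at -0.25 to 0.54 at 1 week and -0.11 to 0.15 at 5 weeks, and 1 of 6 retinas at each timepoint correlated best with its own number. With the replicate block 293 genes were called at 1 week, 134 at 5 weeks and 98 for the difference, and Slc17a6 was called at both timepoints. The planned count models on reads inferred from the steps were not run, and the low count filter of the tables could not be undone. At the lowest levels (Slc18a2, 59 reads in a retina) depth limits what difference was detectable.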
